A study of Schizosaccharomyces pombe with 40 samples.

Results

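Cdelta21 and 2C/S-H/Y are fission yeast (Schizosaccharomyces pombe) strains with altered rep2, and their expression in hydroxyurea was compared over the 16 arrays taken at 10, 30, 60 and 120 min, 8 of each strain, out of 40 in the series. Per the labels Cdelta21 is a truncation of rep2 and 2C/S-H/Y a site mutation, and both were grown in rich YES medium at 30 °C to mid log phase and then given 8 mM hydroxyurea. Every time had 2 arrays per strain. A further 4 arrays at 0 min, 2 of each strain, served as the comparison before the drug. The values are log2 ratios of strain RNA, labelled with Cy5, to a pooled mid-log wild-type reference labelled with Cy3. A value of 1 is therefore 2-fold above that reference, taking the ratio as Cy5 over Cy3, a direction that the labels do not state. There was no wild-type sample in hydroxyurea and no dye swap among these arrays. The labels give neither the other alleles of the strains nor how many clones stand behind each. The description field names another mutant on all 40 arrays, so the strain names rest on the sample titles.

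Rep2 is an activator of MBF, the transcription complex of Cdc10 with Res1 and Res2 that drives the genes of the G1/S transition. MBF targets encode cyclins, licensing factors, ribonucleotide reductase and other replication proteins. Hydroxyurea inhibits ribonucleotide reductase and stalls replication forks, and the replication checkpoint then keeps MBF targets expressed, in part by acting on the repressor Nrm1.

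Differences below are Cdelta21 minus 2C/S-H/Y on the log2 scale, as the mean of the 4 times with equal weight, and their standard errors (SE) and adjusted p-values are from limma over 5004 features. "Higher" and "lower" stand for an adjusted p under 0.05. The 2 arrays of a time are not said to come from separate cultures, and the 4 times of either strain may likewise share a culture. The SE and p-values of the main fit rest on the spread between same-time arrays of a strain, pooled over all strains in the series. They do not measure the spread over all arrays of a strain in hydroxyurea. Strain and culture therefore cannot be told apart. The number of arrays limits the precision.

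Some arrays stood apart. The replicate 1 arrays of 2C/S-H/Y at 30 and 60 min correlated at 0.992 across features, with an SD of their difference of 0.067, while arrays of the same group differed with an SD of 0.197 to 0.313. Named genes whose call changes without both, and list counts that move by over 1.5 times, are given both ways. The Cdelta21 replicate 1 array at 60 min had a median of −0.131, and the medians of the other 15 arrays ran from −0.0195 to 0.0142. At 0 min the arrays of 2C/S-H/Y correlated at 0.924 with each other but at only 0.44 to 0.59 with the later arrays of that strain, against 0.64 to 0.856 for Cdelta21.

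The strains differed at many genes by small amounts and at few genes by large ones. At an adjusted p under 0.05, 1577 features (31.5%) were higher in Cdelta21 and 1739 (34.8%) lower, 66.3% in all, but the median size of the difference was only 0.23. At least 2-fold differences that passed the test numbered 91, or 1.82%, with 45 higher (0.899%) and 46 lower (0.919%), and 79 of these 91 were named genes. For 845 features (16.9%) the 8 arrays of one strain did not overlap the 8 of the other, 431 higher (8.61%) and 414 lower (8.27%), and 76 of the 91 were among them. Of the 91, all 45 higher ones and 44 of the 46 lower ones had the same sign at all 4 times. Their selection by a large mean over those times made this likely, so it is no separate evidence. With each strain taken as 2 time courses, 2 against 2, the count of calls was 2515.

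Lower in Cdelta21, and so high in 2C/S-H/Y, were first of all the uracil-regulated genes. For urg1 the Cdelta21 arrays ran from −0.63 to 0.92 with a median of 0.35, and the 2C/S-H/Y arrays from 2.66 to 4.88 with a median of 4.11. No array of either strain came near those of the other. The difference was −3.66 (SE 0.11, n = 8 arrays of each strain, adjusted p = 5.35e-21 by limma), that is 12.6-fold. The second of these genes, urg2, which encodes a uracil phosphoribosyltransferase, ran from −0.28 to 1.61 (median 0.93) in Cdelta21 and from 2.99 to 4.94 (median 3.94) in 2C/S-H/Y. Again the strains were apart on every array, by 9.17-fold (difference −3.20, SE 0.11). The third, urg3, differed by −0.39 with overlapping arrays, and its 2 probes disagreed, since probe 1 alone gave 0.58 (adjusted p = 6.87e-09 by limma).

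The iron regulon, the genes for iron uptake and storage that respond to iron supply, had 10 of 13 members lower and 1 higher, 4 of the lower ones by at least 2-fold, with a median of −0.92. Over all features 34.8% were lower and 31.5% higher, with a median of −0.01. The ferric reductase gene frp1 ran from −1.19 to 0.46 (median −0.13) in Cdelta21 and from 2.13 to 2.82 (median 2.66) in 2C/S-H/Y. Its strains did not overlap, and the difference was −2.81 (SE 0.06, adjusted p = 1.94e-24 by limma), or 7.01-fold. The transporter gene str3 differed by −1.65 (3.13-fold), the ferroxidase gene fio1 by −1.53 (2.89-fold) and its partner permease gene fip1 by −1.42 (2.67-fold), each without overlap. The repressor gene fep1 had a difference of 0.02 and did not pass. The 1 member that was higher, the vacuolar iron transporter gene pcl1, at 0.96, was picked out after its value was seen.

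Core stress response genes are a set induced by many stresses through the Sty1 kinase and the factor Atf1. Against 34.8% lower and 31.5% higher among all features, 21 of these 23 genes were lower and 0 higher, with a median of −0.69. The small heat shock gene hsp16 showed the largest difference among them. Its arrays ran from −0.68 to 2.80 (median 1.25) in Cdelta21 and from 1.69 to 5.16 (median 3.32) in 2C/S-H/Y. These ranges overlapped, since each strain spread widely over the 4 times, but at 10, 30, 60 and 120 min the differences were −2.30, −2.52, −2.18 and −2.30. The pooled difference was −2.33 (SE 0.09, adjusted p = 7.61e-19 by limma), or 5.01-fold. The heat shock gene hsp9 differed by −1.48, the sulfiredoxin gene srx1 by −1.20, the mitochondrial glycerol-3-phosphate dehydrogenase gene gut2 by −1.13 and the disaggregase gene hsp104 by −1.08. Of those 4, srx1 and gut2 did not overlap between strains. Over the whole list 3 of the 23 did not overlap, against 16.9% of all features.

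For the next lists, the shares over all features were 34.8% lower, 31.5% higher and 16.9% without overlap. Genes of the respiratory chain and ATP synthase were lower in 26 of 35 cases and higher in 4, with a median of −0.51, and 0 differed by 2-fold. With probe 1 alone 2 were higher. At 0 min 18 of the 35 were already lower and 5 higher, where 14.2% of all features were lower and 15.2% higher. The largest differences were −0.97 for qcr1, −0.95 for atp4, −0.86 for atp5 and −0.82 for qcr10, all 4 without overlap. Of 18 Pap1 and antioxidant genes, 13 were lower, such as the superoxide dismutase genes sod1 at −0.90 and sod2 at −0.72, and 3 were higher, but 0 with probe 1 alone. All 9 core histone genes were lower, from −0.62 for hta2 to −0.36, with a median of −0.46. At 0 min 4 of the 9 were already lower. Once the difference at 0 min was subtracted 0 of the 9 passed, against 27.0% of all features. All 10 tested genes of the cyclin and Cdc2 control list were lower as well, with a median of −0.39. Among them were pyp3, a phosphatase acting on Cdc2, at −0.69, the Wee1-inhibiting kinase genes cdr1 at −0.63 and cdr2 at −0.53, and cdc2 itself at −0.45; with probe 2 alone 6 of these 10 were lower.

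The largest single difference outside these lists was at apc10, which encodes a subunit of the anaphase-promoting complex. Its log2 ratio ran from −0.16 to 0.18 (median 0.05) in Cdelta21 and from 2.59 to 3.87 (median 3.48) in 2C/S-H/Y. Only that second strain was far from the reference. The difference was −3.30 (SE 0.08, adjusted p = 9.27e-23 by limma), or 9.88-fold, and it was already −3.69 at 0 min. In the gene order of the RefSeq table the next gene is leu1, an amino acid synthesis gene often used as a marker, and it differed by −0.84 (SE 0.08), with means of 0.24 in Cdelta21 and 1.08 in 2C/S-H/Y. The gene on its other side, knh4, differed by −0.35. Of 12 common marker genes 7 were lower, ura4 at −0.67 among them, and 3 were higher, lys1 at 0.40, leu2 at 0.34 and arg3 at 0.22. Among all features 34.8% were lower and 31.5% higher. With probe 2 alone leu2 was at 0.03 and did not pass (adjusted p = 0.803 by limma). With probe 1 alone 4 of the 12 were lower. Whether marker insertions differ between the strains is not given, and their part in the result was not tested.

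Others lower in Cdelta21 by large amounts included tlh1, a telomere-linked helicase gene, at −2.08, the rhomboid protease gene rbd2 at −1.87, the alpha-galactosidase gene mel1 at −1.49, and cbm1 at −2.16 and mug114 at −2.32. Those 5 did not overlap between strains. The probes of mug114 alone gave −3.07 and −1.57. Without a published name were SPOM_SPAC27D7.11C at −2.84, SPOM_SPAC27D7.09C at −1.88 and SPOM_SPAC22F8.05 at −1.63, of which only the first did not overlap.

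**Figure D1:**
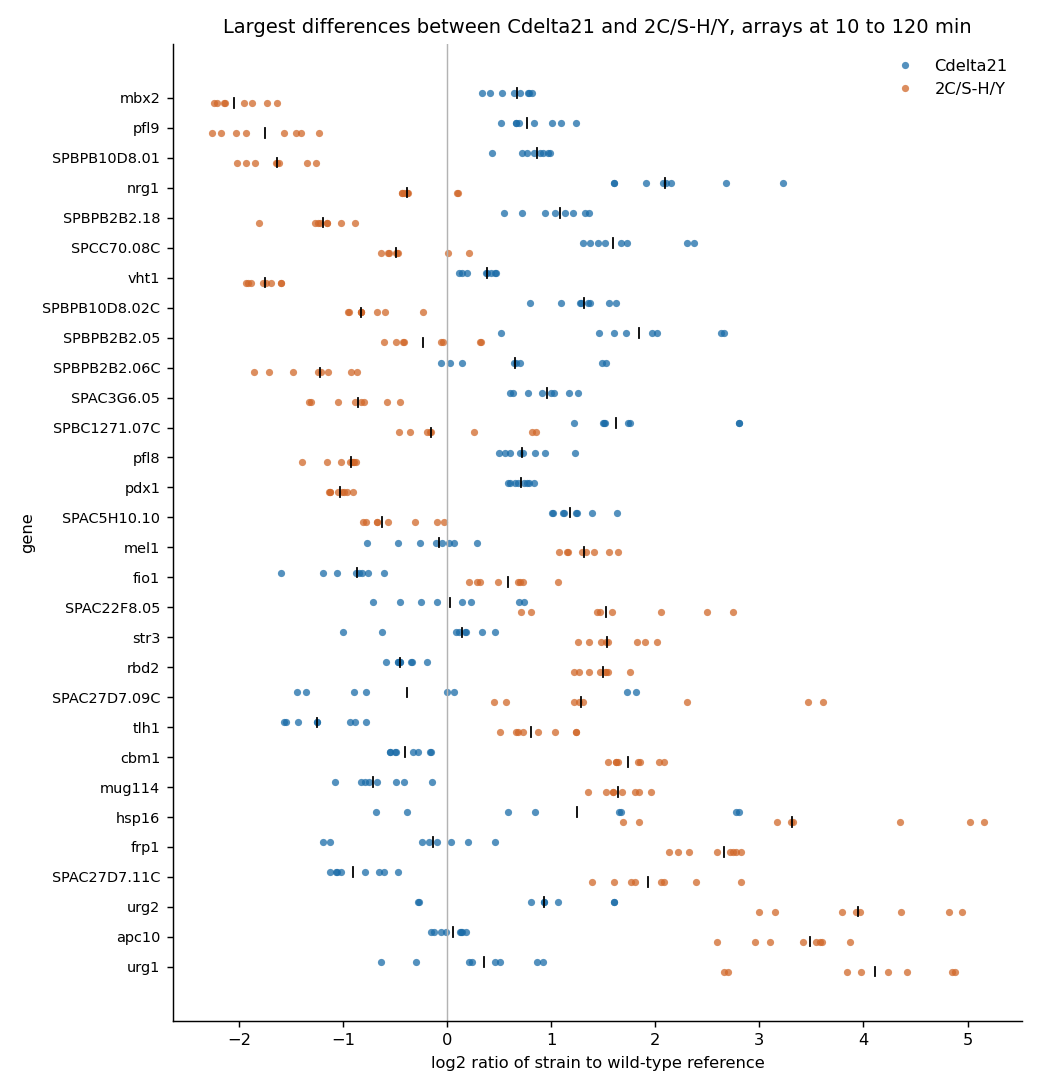
Log2 ratio to the wild-type reference (x axis) for the 30 named genes with the largest differences (y axis), with 1 point for each of the 8 arrays of Cdelta21 and the 8 of 2C/S-H/Y at 10 to 120 min and a bar at the median. The 15 genes higher in Cdelta21 are at the top and the 15 lower ones below, and the arrays of the strains overlap for hsp16, SPOM_SPAC27D7.09C and SPOM_SPAC22F8.05.

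Higher in Cdelta21 were genes of cell-surface adhesion. The MADS-box factor gene mbx2, whose product switches on flocculins, ran from 0.34 to 0.82 (median 0.67) in Cdelta21 and from −2.24 to −1.63 (median −2.04) in 2C/S-H/Y. Every Cdelta21 array was above the reference and every 2C/S-H/Y array below it. The difference was 2.61 (SE 0.08, adjusted p = 8.41e-21 by limma), or 6.12-fold. Of 6 flocculin genes, 4 were higher and 0 lower, 3 of them by at least 2-fold, where 31.5% of all features were higher and 34.8% lower. For pfl9 the arrays ran from 0.52 to 1.24 (median 0.76) in Cdelta21 and from −2.26 to −1.23 (median −1.75) in 2C/S-H/Y, without overlap. Its difference was 2.59 (6.04-fold), that of pfl8 was 1.77 (3.42-fold), of pfl3 1.14 (2.21-fold) and of pfl4 0.52. The probes of pfl8 alone gave 1.05 and 2.49, and with probe 1 alone 2 of the 6 genes were higher.

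Also without overlap was the biotin transporter gene vht1, which ran from 0.11 to 0.47 (median 0.38) in Cdelta21 and from −1.93 to −1.60 (median −1.75) in 2C/S-H/Y, a difference of 2.09 (4.25-fold). The gene nrg1 ran from 1.60 to 3.23 (median 2.09) in Cdelta21 and from −0.43 to 0.11 (median −0.39) in 2C/S-H/Y, again apart, with a difference of 2.45. The gene pdx1 differed by 1.74. Genes with no published name that were higher included SPOM_SPBPB10D8.01 at 2.48, SPOM_SPBPB10D8.02C at 2.03, SPOM_SPBPB2B2.18 at 2.25, SPOM_SPBPB2B2.05 at 1.99 and SPOM_SPBPB2B2.06C at 1.94. To these come SPOM_SPCC70.08C at 2.09, SPOM_SPAC3G6.05 at 1.82, SPOM_SPBC1271.07C at 1.78 and SPOM_SPAC5H10.10 at 1.72. At none of the genes named in this group did the strains overlap.

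Genes of the kinetochore, checkpoint and fork lists below were more often higher than lower, mostly by small amounts. Among all features 31.5% were higher and 34.8% lower. MBF targets, replication genes among them, and core histones are listed apart. Of the 19 MBF targets 11 were lower and 4 higher, and all 9 core histone genes were lower. Of 23 centromere and kinetochore genes 12 were higher and 1 lower, with a median of 0.20. The CENP-C gene cnp3, a scaffold of the inner kinetochore, stood out, from −0.80 to 0.11 (median −0.22) in Cdelta21 and from −2.04 to −1.43 (median −1.71) in 2C/S-H/Y. Its arrays did not overlap, and its difference was 1.47 (SE 0.06, 2.76-fold). The next in size were fta3 at 0.76, mis15 at 0.53 and fta6 at 0.49, but with probe 1 alone fta6 was at 0.11 (adjusted p = 0.306 by limma). With probe 2 alone 0 of the 23 were lower. Of 18 checkpoint and repair genes 11 were higher and 3 lower, with a median of 0.22: the sensor kinase gene rad3 and that of its partner rad26 were at 0.34 and 0.36, and the checkpoint genes chk1 and hus1 at −0.38 and −0.35. With probe 2 alone 6 of these 18 were higher and 1 lower, and with 2 time courses against 2, 7 were higher. The call of chk1 was lost without 10 min (adjusted p = 0.103 by limma) and with probe 2 alone, and that of hus1 with probe 1 alone. Of 26 origin and fork genes 13 were higher and 4 lower, with cdc6, the polymerase delta catalytic subunit gene, at 0.66, the ligase gene cdc17 at 0.48, the clamp loader gene rfc3 at 0.46, and the helicase gene mcm2 at −0.47. With probe 2 alone 8 of these 26 were higher, and with 2 time courses against 2, 2 were lower.

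Among growth genes the lists differed, where 31.5% of all features were higher and 34.8% lower. Of 86 ribosome biogenesis genes 22 were higher and 21 lower, with a median of 0.03, and with 2 time courses against 2 there were 13 of each. Of 121 cytosolic ribosomal protein genes 52 were lower and 7 higher, with a median of −0.15, but without the near-repeat pair of 2C/S-H/Y arrays 24 were lower and 12 higher. Without 60 min 30 were lower, and with 2 time courses against 2, 23 were lower and 4 higher. The higher count was 17 after quantile normalization, 13 with probe 2 alone, 12 without the Cdelta21 replicate 1 array at 10 min and 4 without 10 min.

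**Figure D2:**
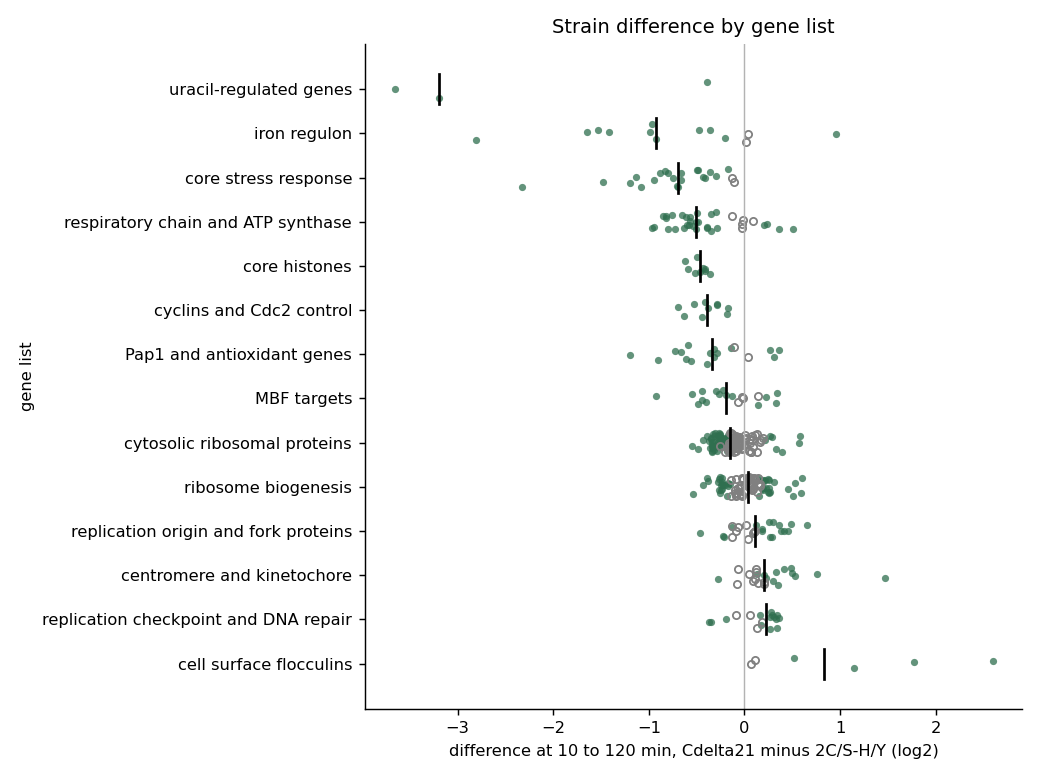
Difference between Cdelta21 and 2C/S-H/Y at 10 to 120 min (x axis, log2) for each member of 14 gene lists (y axis). Filled points passed an adjusted p of 0.05, open points did not, and bars are medians, which run from −3.20 for the 3 uracil-regulated genes to 0.83 for the 6 flocculins.

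At rep2 itself the signal was lower in Cdelta21. The probe average ran from −0.96 to −0.57 (median −0.81) in Cdelta21 and from −0.19 to 0.46 (median 0.30) in 2C/S-H/Y, without overlap, and differed by −1.01 (SE 0.07, adjusted p = 1.9e-12 by limma). Probe 1 gave −0.70 ± 0.15 (SD, n = 8) in Cdelta21 and 0.62 ± 0.26 in 2C/S-H/Y, and probe 2 gave −0.85 ± 0.22 and −0.14 ± 0.26. Where the probes lie relative to the truncation is not given, so these are signals at the probes and not transcript levels.

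For the rest of the complex the differences were small. In cdc10 the difference was −0.07 (adjusted p = 0.342 by limma), but it was −0.15 without the near-repeat pair (adjusted p = 0.0256 by limma) and −0.28 with probe 2 alone (adjusted p = 0.0123 by limma), both lower. It was in res1 −0.11 (adjusted p = 0.191 by limma) and in the other activator gene rep1 −0.12 (adjusted p = 0.259 by limma). The DNA-binding partner gene res2 was higher, at 0.19 (adjusted p = 0.0111 by limma), and nrm1, the corepressor gene and itself a target, lower at −0.13 (adjusted p = 0.0303 by limma). With 2 time courses against 2 neither passed (adjusted p = 0.09 for res2 and 0.197 for nrm1 by limma). The nrm1 call was lost under 15 of 36 alternatives, with the time course as a random block among them (adjusted p = 0.0721 by limma), and that of res2 under 2.

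Of the 19 MBF targets tested, 11 were lower in Cdelta21 and 4 higher, 0 by 2-fold, with a median of −0.20, and the strains overlapped at all 19. The shares over all features were 34.8% lower, 31.5% higher and 16.9% without overlap. Overlap was judged over the 4 times together, so a gene that varies with time can overlap despite a difference at each time. Among the targets the S-phase cyclin gene cig2 had the largest difference. It ran from −0.70 to 1.35 (median 0.04) in Cdelta21 and from 0.24 to 2.06 (median 0.89) in 2C/S-H/Y, with a difference of −0.93 (SE 0.07, 1.90-fold, adjusted p = 1.33e-11 by limma) and values of −0.94, −1.19, −0.78 and −0.80 at the 4 times. The licensing gene cdc18 ran from −0.15 to 2.81 (median 1.33) and from 0.94 to 2.95 (median 1.94). Its ranges overlapped widely, and it differed by −0.55 (SE 0.10, adjusted p = 2.38e-05 by limma).

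The large ribonucleotide reductase subunit gene cdc22 differed by −0.48 and the small subunit gene suc22 by −0.27. With probe 1 alone suc22 was at −0.13 and did not pass (adjusted p = 0.0782 by limma). The cohesin gene rad21 was at −0.45, the kinase gene mik1 at −0.44, the dUTPase gene dut1 at −0.40 and the ubiquitin ligase adaptor gene cdt2 at −0.30. The histone gene regulator ams2 was at −0.22, but with probe 2 alone it was at −0.19 and did not pass (adjusted p = 0.0862 by limma). The gene tos4 passed at −0.20, but of 36 alternatives 17 ended its call, among them the time course as a random block (adjusted p = 0.111 by limma) and the near-repeat pair left out (−0.16, adjusted p = 0.115 by limma). On the higher side were the mismatch repair gene msh6 at 0.33 and the RPA subunit gene ssb1 at 0.34. With probe 2 alone ssb1 was at 0.23 and did not pass (adjusted p = 0.0874 by limma). The polymerase alpha gene pol1 at 0.23 and the checkpoint mediator gene mrc1 at 0.14 also passed, but pol1 lost its call under 17 of 36 alternatives and mrc1 under 14 of 35. With the time course as a random block their adjusted p was 0.0784 for pol1 and 0.0883 for mrc1 by limma, and without the near-repeat pair they were at 0.15 (adjusted p = 0.237 by limma) and 0.13 (adjusted p = 0.0745 by limma). The licensing gene cdt1 at −0.06, the end-resection gene ctp1 at −0.03, the helicase gene mcm5 at −0.01 and the cohesin gene psm3 at 0.14 did not pass, though psm3 was higher under 6 of 36 alternatives.

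Some of these calls depended on the processing, while those of cig2, cdc22, rad21, mik1, dut1 and msh6 were kept under all 36 alternatives. Centring each array on its median ended only the nrm1 call (adjusted p = 0.0688 by limma). It also made psm3 pass as higher, at 0.15 (adjusted p = 0.0376 by limma). After quantile normalization 6 targets were lower in place of 11, cdc18 at −0.19 no longer passed (adjusted p = 0.116 by limma), nor did cdt2 at −0.10 and nrm1 at −0.09, ams2 turned to 0.07 and tos4 to 0.10, neither passing, and cdt1 turned to 0.27 (adjusted p = 0.00151 by limma). The count of higher targets was 2 in place of 4 with the time course as a random block, with 2 time courses against 2, with the 2 strains fitted alone, with probe 2 alone, without 120 min and without the near-repeat pair. It was also 2 without any 1 of 4 arrays, replicate 2 of Cdelta21 at 60 min, replicate 1 of Cdelta21 at 120 min and replicate 1 of 2C/S-H/Y at 60 or 120 min. By time, 4 targets were lower and 0 higher at 10 min, 9 and 0 at 30 min, 6 and 1 at 60 min, and 3 and 3 at 120 min, against 3 and 1 at 0 min. Of all features, 14.7%, 16.5%, 24.7% and 19.1% were lower and 15.9%, 16.2%, 13.5% and 18.3% higher at 10, 30, 60 and 120 min, and 14.2% and 15.2% at 0 min. The target counts at 30 and 60 min include the near-repeat pair, and counts by time were not made without it.

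**Figure D3:**
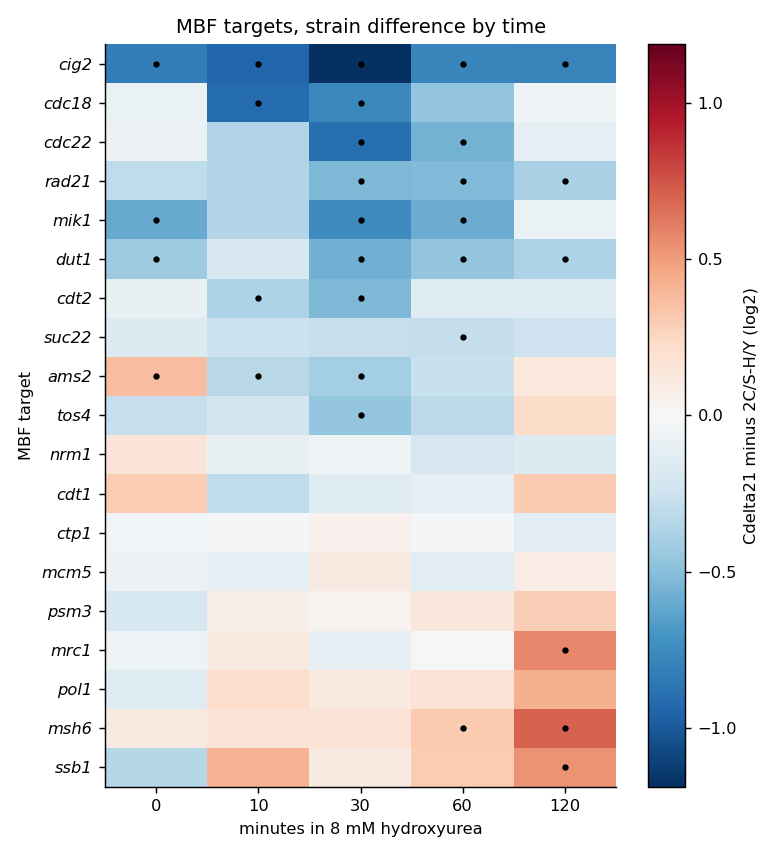
Difference between Cdelta21 and 2C/S-H/Y (colour, log2) for the 19 MBF targets (rows) at 0, 10, 30, 60 and 120 min (columns), with a dot where the adjusted p was under 0.05. The count of lower targets was largest at 30 min, at 9, while the medians were −0.23, −0.27, −0.20 and −0.06 at 10, 30, 60 and 120 min. The 2C/S-H/Y replicate 1 arrays at 30 and 60 min are the near-repeat pair. The gene cig2 passed at all 5 times.

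At 0 min the strains already differed, at 1471 features (29.4%), 759 higher (15.2%) and 712 lower (14.2%), 67 of them by 2-fold (1.34%). Of the 45 genes and unnamed probes higher by 2-fold in hydroxyurea 33 were higher at 0 min too, 3 were lower and 9 did not pass. Of the 46 lower ones 29 were lower at 0 min, 3 higher and 14 did not pass. Thus apc10 (−3.69 at 0 min), tlh1 (−2.10), pfl9 (2.03) and mbx2 (1.79) were apart before the drug. Also among the largest at 0 min were gdh2 at 2.23, SPOM_SPBC17G9.12C at 2.14 and hsp9 at −1.73. For tlh1 the differences in hydroxyurea and at 0 min differed by 0.03 (adjusted p = 0.932 by limma).

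At other features the difference itself changed. When the difference at 0 min was subtracted, 1353 features (27.0%) passed, 590 positive (11.8%) and 763 negative (15.2%). At urg1 the strains lay at −0.31 and −0.30 at 0 min, and at urg2 at −0.22 in Cdelta21 and −0.77 in 2C/S-H/Y. The change in the difference was −3.65 (adjusted p = 1.39e-11 by limma) for urg1 and −3.74 for urg2. For frp1 it was −3.19, for cnp3 1.89, and for the hexose transporter gene ght5 1.84, where 2C/S-H/Y had been at −0.11 and Cdelta21 at −0.97 at 0 min. In hydroxyurea ght5 lay from −2.17 to −0.97 in Cdelta21 and from −2.85 to −2.18 in 2C/S-H/Y. All of these values rest on the 2C/S-H/Y arrays at 0 min described above, and the part of those arrays in them was not tested.

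**Figure D4:**
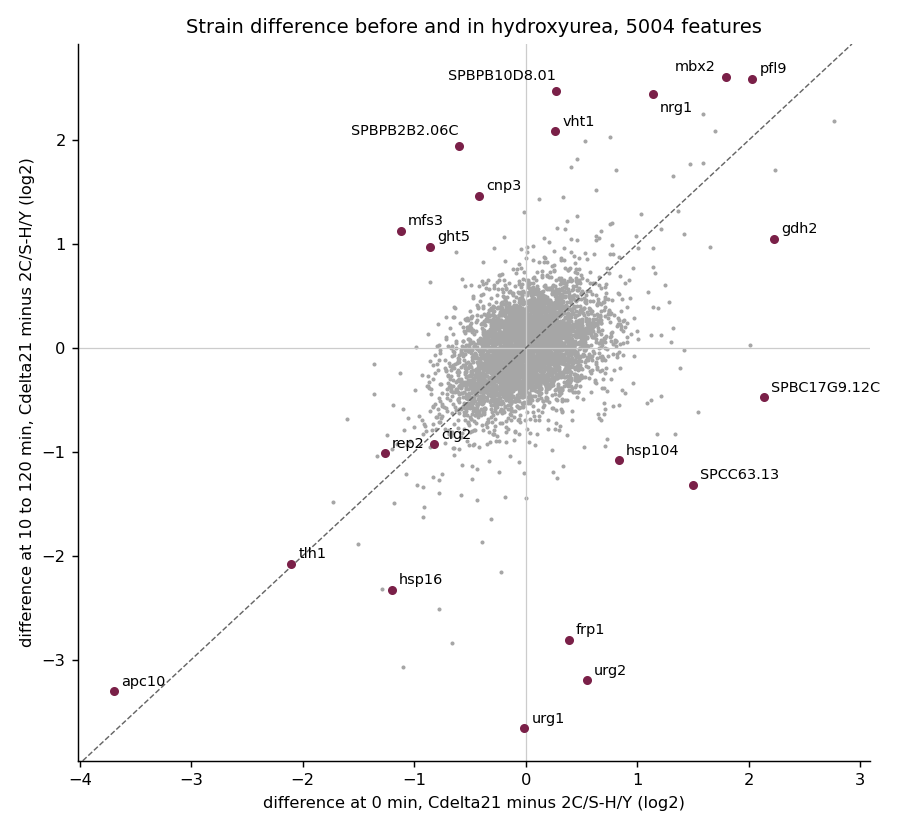
Difference between Cdelta21 and 2C/S-H/Y at 10 to 120 min (y axis, log2) against the difference at 0 min (x axis, log2) for 5004 features, with 21 genes labelled and a dashed line where both are equal. apc10, tlh1 and pfl9 lie near the line, while urg1, urg2 and frp1 lie far below it, with 0 min differences of −0.01, 0.55 and 0.39, and cnp3, mfs3 and ght5 lie above 0 with negative 0 min differences.

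Within hydroxyurea a change of the difference with time passed the test at few features. At 10, 30, 60 and 120 min 1531 (30.6%), 1635 (32.7%), 1911 (38.2%) and 1874 (37.5%) features passed, with 114 (2.28%), 103 (2.06%), 122 (2.44%) and 141 (2.82%) by at least 2-fold. At 60 min 35.4% of the calls were higher in Cdelta21, and this was 48.2% after centring each array on its median, 48.9% after quantile normalization and 47.2% without the Cdelta21 replicate 1 array whose median was low. The difference varied over the 4 times at 82 features (1.64%, F test), 16 of them 2-fold apart in the pooled comparison.

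The uracil genes converged. The urg1 difference was −4.66 at 10 min, −4.19 at 30 min, −4.0 at 60 min and −1.79 at 120 min (adjusted p = 1.71e-06 by limma's F test), as the mean of 2C/S-H/Y went from 4.56 at 30 min to 2.68 at 120 min and that of Cdelta21 from −0.46 at 10 min to 0.89. Other genes diverged: gdh2, the NAD-dependent glutamate dehydrogenase gene, went from 0.17 at 10 min to 1.98 at 120 min (adjusted p = 8.68e-08 by limma's F test), after 2.23 at 0 min. The gene mfs3 went the other way, from 2.41 at 10 min to 0.56 at 120 min.

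A further group crossed over late. At 30 of the 82 features the sign was the same at 10, 30 and 60 min and opposite at 120 min. The 82 were chosen by their change over these same times, and the share of all features with that pattern is not given. The endoglucanase gene eng1, which acts in cell separation, was at −0.68, −1.13, −1.08 and then 0.55, as its mean in 2C/S-H/Y went from 1.01 at 60 min to −1.02 at 120 min. The exoglucanase gene exg1, which had the opposite sign at 10 min as well, was at 0.12, −0.53, −0.57 and 0.85, and SPOM_SPCC306.11 at −0.15, −0.80, −0.66 and 0.92. Their pooled differences were −0.03 (adjusted p = 0.593 by limma) and −0.17 (adjusted p = 0.00757 by limma), the latter −0.14 without the near-repeat pair (adjusted p = 0.0534 by limma).

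**Figure D5:**
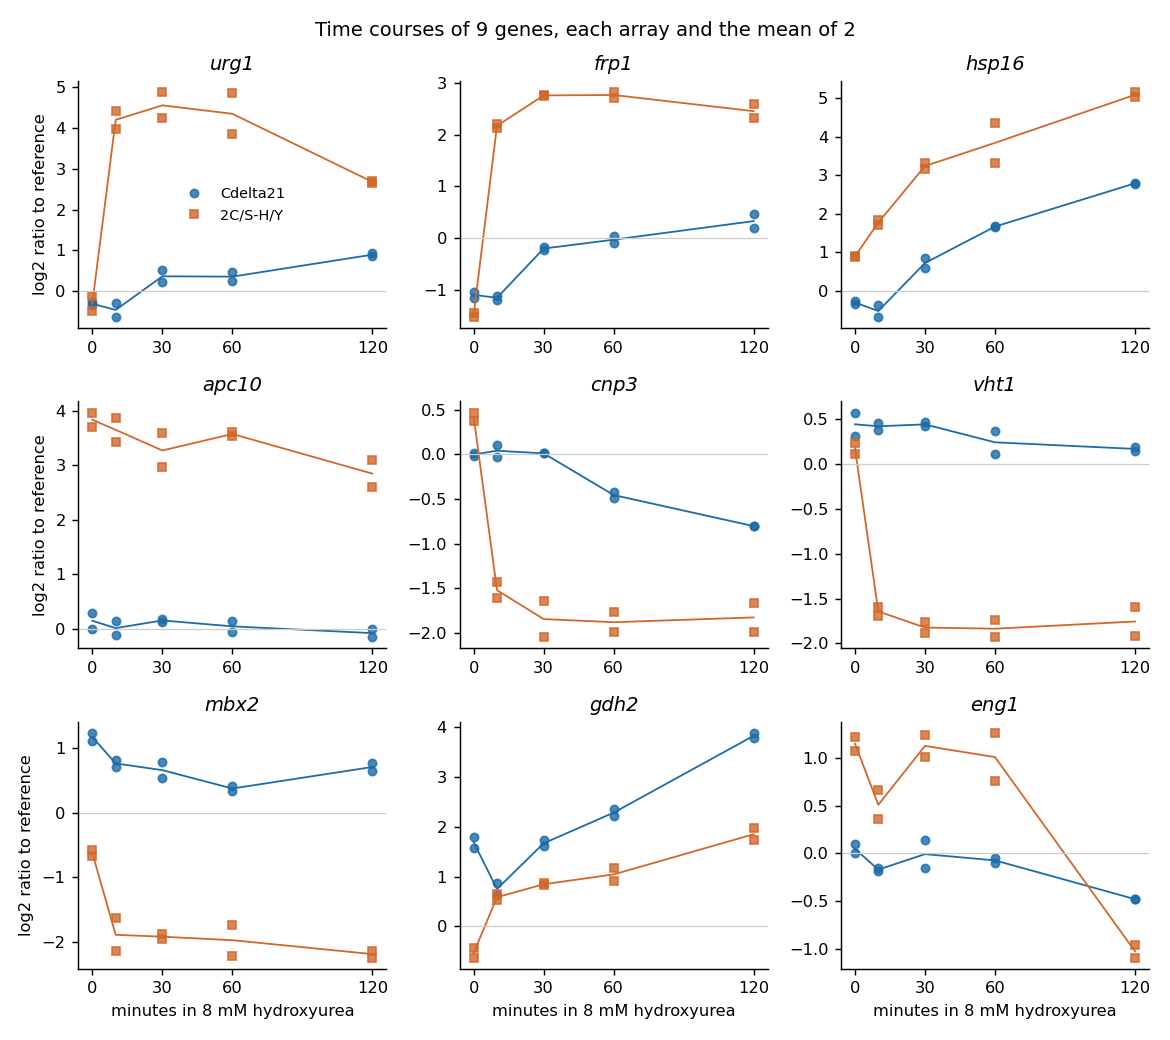
Log2 ratio to the wild-type reference (y axis) against minutes in 8 mM hydroxyurea (x axis) for 9 genes, with each array as a point and the mean of the 2 arrays as a line for Cdelta21 and 2C/S-H/Y. urg1, frp1, cnp3 and vht1 differ by −0.01, 0.39, −0.42 and 0.27 at 0 min and lie farther apart in hydroxyurea, apc10 and mbx2 are apart at all times, and eng1 crosses between 60 and 120 min.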

How the data were processed

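The files hold the authors' deposited log2 ratios, 1 per probe and array, which per the labels compare Cy5 (strain) with Cy3 (wild-type reference). The labels and the file name no scanner, background correction or normalization. Base 2 was read from the values: 2 to their power was a whole multiple of 0.001 (tolerance 0.02 of that unit) for 100% of values below 0, against 3.48% with base 10. Of 9858 probes 9632 had 1 gene symbol, 44 several and 182 none, and the 2 probes of a gene were averaged. Features needed values on 80% of the arrays and in every group, which kept 5004 of 5042. All 40 arrays entered the fit of 20 group means in limma 3.58.1 (R 4.3.3, 20 residual degrees of freedom), with Benjamini-Hochberg adjustment over 5004 features and a threshold of 0.05. The script was tested on simulated data. Named genes were the 15 largest pooled differences in each direction with 1 sign at all 4 times, all MBF genes, the 4 largest of each other list (38 lists), the 3 largest in each direction at a time, the 5 largest in each direction after subtracting 0 min, and the 6 smallest F p. Names and gene order came from RefSeq (ASM294v3), where 4791 of 4816 genes matched. The members and lists were chosen with earlier results of these data known.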

Additional observations from a re-analysis of the deposited data

Results flagged for a closer look

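The difference between Cdelta21 and 2C/S-H/Y itself differed between hydroxyurea and 0 min, by limma's test of that change, at 1353 features (27.0%). Listed here are the 10 named genes with the largest such changes, 5 in each direction. It was −3.74 at urg2, −3.65 at urg1, −3.19 at frp1, −2.81 at SPOM_SPCC63.13 and −2.61 at SPOM_SPBC17G9.12C. It was 2.54 at SPOM_SPBPB2B2.06C, 2.25 at mfs3, 2.2 at SPOM_SPBPB10D8.01, 1.89 at cnp3 and 1.84 at ght5. At SPOM_SPCC63.13 and SPOM_SPBC17G9.12C Cdelta21 was above 2C/S-H/Y at 0 min, by 1.50 and 2.14, and at 10 min below it, by −2.76 and −2.27.

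The difference also varied from 10 to 120 min, by limma's F test adjusted over all features, at 82 features (1.64%). The 6 named genes with the smallest p in limma's F test were gdh2 (adjusted p = 8.68e-08), SPOM_SPCC306.11 (adjusted p = 8.68e-08), mfs3 (adjusted p = 1.95e-07), exg1 (adjusted p = 6.13e-07), eng1 (adjusted p = 1.25e-06) and urg1 (adjusted p = 1.71e-06). No group has more than 2 arrays, so single arrays could not be tested as outliers.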

How the results depend on the processing

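The pooled count of 3316 stayed between 2515 (2 time courses against 2) and 3416 (quantile normalization) under every alternative, and between 3134 and 3319 when 1 array was left out. The number of arrays limits the precision, and no signal intensities were used. Counts at single times fell with 1 probe: 973 at 10 min, 992 at 30 min and 1245 at 60 min with probe 2 alone, 1068 at 30 min with probe 1 alone, and 857 for hydroxyurea less 0 min with probe 2 alone. Without the near-repeat pair, an alternative chosen after seeing the data, 1002 passed at 30 min, 1260 at 60 min and 3010 pooled. The count of differences that varied with time was 186 after quantile normalization, 128 with the time course as a random block, 49 and 41 with probe 1 or probe 2 alone, and 34 with the 2 strains fitted alone. Leaving out 1 array gave 741 to 1529 at 0 min (lowest without 2C/S-H/Y replicate 1, 791 without Cdelta21 replicate 1, 924 without 2C/S-H/Y replicate 2), 836 to 1603 at 10 min (lowest without 2C/S-H/Y replicate 1, 924 without Cdelta21 replicate 2), 937 to 1693 at 30 min (lowest without 2C/S-H/Y replicate 1, 1087 without Cdelta21 replicate 1), 1213 to 1979 at 60 min and 1184 to 1917 at 120 min (both lowest without 2C/S-H/Y replicate 1 of that time). It gave 796 to 1435 for hydroxyurea less 0 min (lowest without Cdelta21 0 min replicate 1, 815 without 2C/S-H/Y 0 min replicate 1) and 53 to 144 for the change with time (without Cdelta21 120 min replicate 1 and without 2C/S-H/Y 120 min replicate 2). A lone array left in a group is assumed to vary like the others. The split of calls at 60 min was 24.5% higher without the Cdelta21 replicate 2 array. Replicate numbers did not pair the 2 strains: their same-numbered arrays deviated together at 1 of 5 times (correlations −0.281 to 0.133). A replicate block gave 3362 pooled calls. Within a strain some same-numbered arrays were closest to each other, such as replicate 2 at 30 and 60 min of 2C/S-H/Y (0.913) and of Cdelta21 (0.891). Both Cdelta21 arrays at 10 min were closest to the other number at 30 min (0.835 and 0.780). With the time course as a random block (correlation 0.145) 2968 features passed.

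Directions that turned were ams2 (0.0714), tos4 (0.10) and cdt1 (0.27) after quantile normalization, SPOM_SPCC306.11 with probe 1 alone (0.0106) and without 30 min (0.0359), exg1 without 60 min (0.15), mam1 (0.24) and mei2 (−0.26) with probe 2 alone, and mrpl40 (0.38) and urg3 (0.58) with probe 1 alone. The cause was not tested. The 30 genes named for the pooled difference passed under all alternatives that could be run for them. They were picked as the largest differences in these same arrays, so this is no independent test.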

Other observations

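Genes near chromosome ends were common among the large differences. Of the 50 outermost measured genes at each end of chromosomes I and II, 20 of 200 differed by at least 2-fold, 14 higher and 6 lower in Cdelta21, against 59 of 4570 others. Among them were pfl9, pfl8, nrg1, tlh1, frp1, str3 and mel1. The grouping was chosen after the values were seen and was not tested.

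Mating genes were mixed. Of 16 genes of mating and early meiosis in either cell type 10 were higher in Cdelta21 and 4 lower, where 31.5% of all features were higher and 34.8% lower, with rgs1, a negative regulator of pheromone signalling, at 0.87. With probe 2 alone 6 were higher, and 2 were lower with the time course as a random block, with 2 time courses against 2, with the 2 strains fitted alone, after median centring, without 120 min, and without any 1 of 5 Cdelta21 arrays (replicate 1 at 10 min, replicate 2 at 30 min, either at 60 min and replicate 2 at 120 min). The M-factor gene mfm2 was higher by 1.08 and the carboxypeptidase gene sxa2 lower, at −0.78. Of 16 sulfur and methionine genes 6 were higher and 6 lower, with a median of −0.10. The extremes were met17 at 1.27 and met1 at 0.98 on one side and met6 at −0.44 and met9 at −0.34 on the other. Of 25 sterol genes 15 were lower and 2 higher, with sre2 at −1.26, erg26 at −0.91 and erg8 at 0.57, and 4 were higher without the near-repeat pair or without 2C/S-H/Y replicate 1 at 60 min alone. Of 6 zinc genes 5 were lower and 1 higher, but 0 higher with probe 2 alone. The zinc uptake gene zrt1 was at −0.68 and the zinc transporter gene zhf1 at −0.65.

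In the other truncations in hydroxyurea the mean log2 ratio of urg1 was 2.39 (Cdelta53) and 1.48 (Cdelta94), between 0.29 in Cdelta21 and 3.95 in 2C/S-H/Y. That of hsp16 was 3.19 and 3.21, against 1.16 in Cdelta21 and 3.48 in 2C/S-H/Y, and that of apc10 was 0.24 and 0.49, against 0.03 and 3.33.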
